A study of Mus musculus with 4 samples.

Results

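The loci described here are stretches of the mouse genome (build mm9) to which Cufflinks, a program that assembles aligned RNA reads into transcripts, assigned reads but no gene name. They were selected on measured values: a locus was kept when at least 1 of the 4 libraries listed it without a name, with the status OK and with a lower bound of at least 5 FPKM (RNA fragments counted per kilobase of transcript and scaled by the number mapped in that library). In all, 15184 of 32626 unnamed rows passed, and rows that shared at least 1 base across the 4 libraries were merged into 12572 loci, of 24515 merged loci for all unnamed rows. The 4 tables together held 178841 rows, 146215 of them named.

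The study sequenced mRNA of dermal cells from mouse embryos, sorted for a LacZ reporter at Axin2, a feedback inhibitor of Wnt/β-catenin signalling. There was 1 library per group: ventral foot skin at embryonic day E17.5, labelled Axin2-LacZ positive or negative, and dorsal back skin at E14.5, labelled the same way. The labels name no allele other than Axin2-LacZ, and body site and age cannot be told apart. Pooling of embryos, litter and sex were not given in the sources used here. With 1 library per group no comparison below has a replicate check or a test, and the bounds printed in brackets beside an FPKM are the authors' own, whose confidence level was not given in the sources used here. They cover the counting and assignment of reads in 1 library and say nothing of how animals vary. Runs of 4 values keep 1 order throughout: the foot pair first, positive then negative by label, and then the back pair likewise.

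All 10 dermal fibroblast markers were at 1 FPKM or more in every library, with a summed level of 3106 to 7195 FPKM, while 7 keratinocyte markers summed to 0 to 29.7 FPKM. Leukocyte, endothelial, skeletal muscle, melanocyte and Schwann, and erythroid markers each summed to at most 13.7 FPKM in any library. The marker lists were chosen with earlier results of these data known, so they are no independent check of the labelled tissue. Mast cell markers summed to 2.17 FPKM in the foot library labelled positive and 265 in the foot library labelled negative, and to 24.6 and 83.9 in the back pair; their part in the differences between the labelled pairs was not tested. Axin2 itself was at 9.65 FPKM [7.10 to 12.5] in the foot library labelled positive and 12.9 [10.2 to 15.3] in the one labelled negative. The order of these values runs against the foot label, but their bounds overlap, so that Axin2 neither bears out nor contradicts it. In the back libraries labelled positive and negative Axin2 was at 4.49 FPKM [3.89 to 5.09] and 3.13 [2.63 to 3.64]. These bounds do not overlap, and the order of the values runs with the back label, with 1 library each. Since Axin2 did not settle the foot label, all libraries are named by their labels throughout.

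As background, an assembler reports a locus wherever reads pile up. Such loci can be genes that the supplied annotation left out, among them long noncoding RNAs and processed pseudogenes, parts of a known gene such as an extended 3′ end or a retained intron, or stray reads from unspliced RNA. Many developmental regulators have a noncoding transcript beside or opposite them, such as those along the Hox clusters. The strand of a row is not in the tables, so an unnamed row within a named gene cannot be assigned to that gene or to an antisense transcript here. No sequence is printed, since no mm9 genome was used here.

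Most of these loci were short and were held by 1 library. The merged loci had a median length of 109 bases (lower quartile 51) and ran from 50 to 180656 bases. Of the 12572 loci, 3837 (30.5%) spanned 60 bases or fewer, 7615 (60.6%) spanned more than 60 but under 500 bases and 1120 (8.91%) spanned 500 bases or more. A row of exactly 51 bases passed 1674 times in the foot library labelled positive and 1632 times in the one labelled negative, against 0 and 2 times in the back libraries labelled positive and negative. Rows of 500 bases or more made up 4.26% and 8.33% of the passing rows in the foot pair and 35.9% and 32.4% in the back pair.

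**Figure D1:**
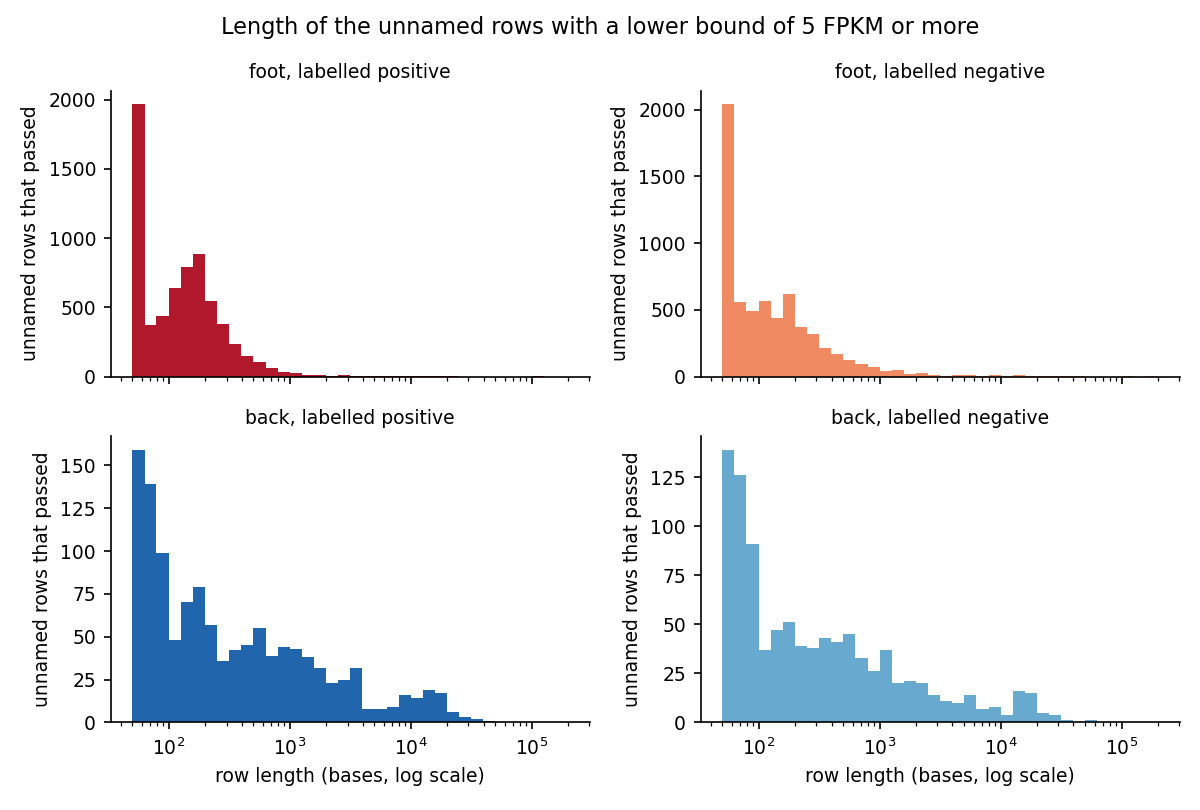
Number of passing unnamed rows (vertical axis, a different scale in each panel) by row length in bases (horizontal axis, log scale), 1 panel per library. All 4 libraries have their highest bar at the shortest lengths, and rows of 500 bases or more make up 4.26% and 8.33% of the rows in the foot pair and 35.9% and 32.4% in the back pair.

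The 4 libraries contributed very unequal numbers, and the threshold did not ask the same of each. In the foot library labelled positive 6689 of 6907 unnamed rows passed (96.8%), and in the foot library labelled negative 6323 of 10608 (59.6%). In the back, 1208 of 10467 (11.5%) passed in the library labelled positive and 964 of 4644 (20.8%) in the one labelled negative. The bounds of 51-base rows fell on whole multiples of a fixed step in each library, within 0.02 of a step for 99.2% to 100% of them. That step was 4.02 and 1.70 FPKM in the foot pair and 0.569 and 0.661 FPKM in the back pair. It came from 1677 and 1636 rows in the foot pair but from only 24 and 5 in the back pair, so the back depths are less firm. By this measure the back libraries were 7.07 and 6.08 times as deep as the foot library labelled positive, and the foot library labelled negative 2.37 times. A bound of 5 FPKM thus stood for 1.24, 2.95, 8.79 and 7.57 steps. The commonest lower bound of a 51-base row was 5 steps in 3 libraries and 6 in the back library labelled negative, a value that lies above 5 FPKM in both foot libraries and below it in both back libraries.

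The same held for longer rows. Among all unnamed rows over 100 and up to 200 bases long, the median lower bound was 11.3, 4.79, 1.25 and 2.31 FPKM. In that length class 99.6% of the rows of the foot library labelled positive passed, against 45.9%, 9.76% and 29.3% of those of the other libraries. The phrase robust signal is not applied to these loci below, since the lower bound that chose them was highest in the library with the least depth.

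**Figure D2:**
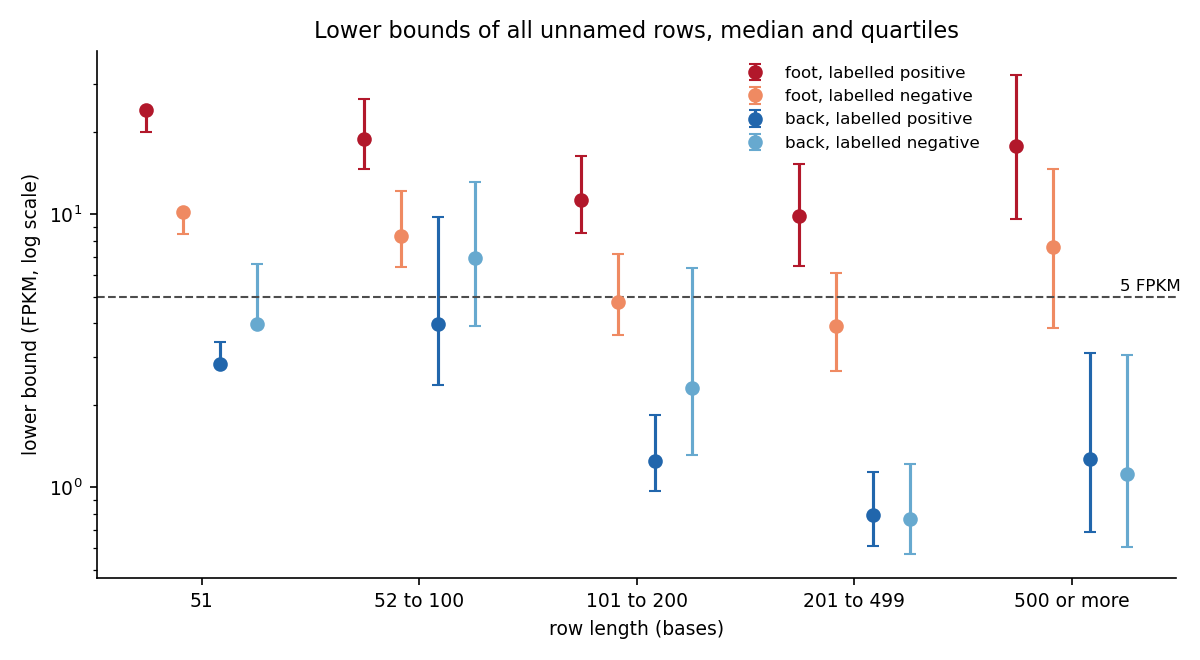
Lower bound in FPKM (vertical axis, log scale) of all unnamed rows by row length (horizontal axis); points are medians and bars the quartiles, 1 colour per library, and the dashed line is the threshold of 5 FPKM. In the class that ends at 200 bases the medians run from 11.3 FPKM in the foot library labelled positive to 1.25 in the back library labelled positive.

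The FPKM of a short row was not usable as a level. In 86.3% and 82.9% of the passing rows of the foot libraries, and in 65.7% and 72.9% of those of the back libraries, the FPKM lay above its own upper bound; for named rows with a lower bound of at least 5 the share was 13.7% to 18.9%. The gap followed the row length. The median ratio of the FPKM to the midpoint of its bounds was 6661 for rows of 50 to 60 bases, 115 up to 100 bases, 11.98 up to 200, 2.22 under 500, 1.21 under 1000 and 1.001 for 1000 bases or more. The FPKM lay inside its bounds in 0.935% of the rows in the shortest class and in 76.3% of those in the longest.

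**Figure D3:**
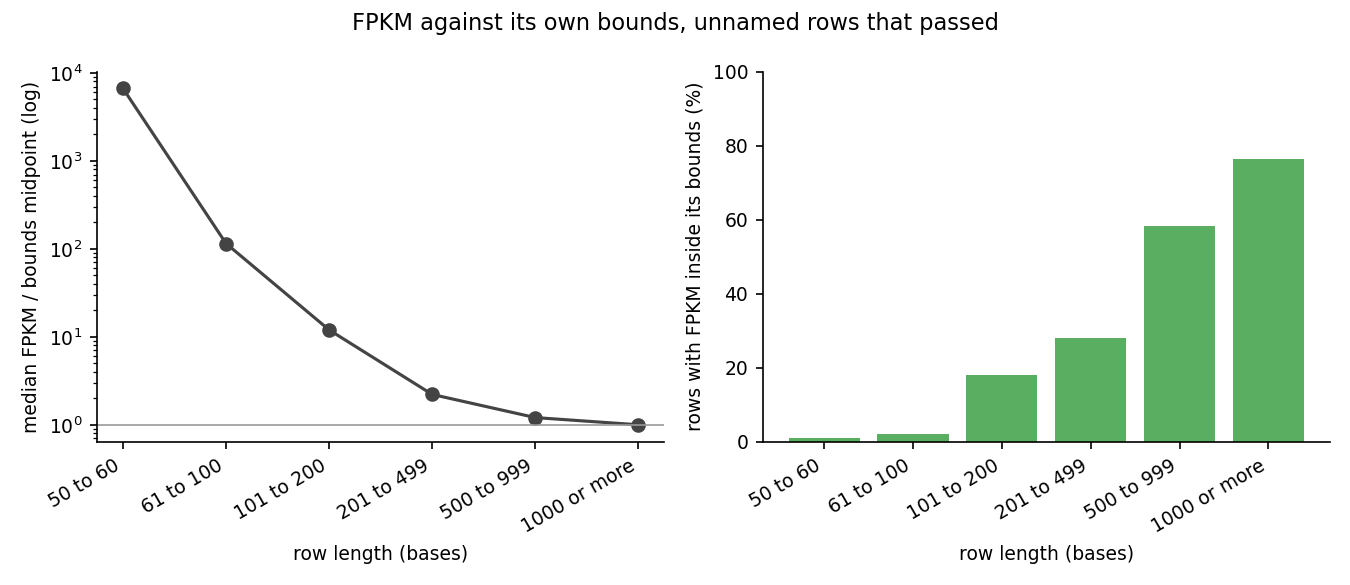
Left, the median ratio of FPKM to the midpoint of its own bounds (log scale) by row length in bases; right, the percentage of passing rows whose FPKM lies inside its bounds. The ratio falls from 6661 in the shortest class to 1.001 in the longest while the percentage rises from 0.935 to 76.3.

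Among the 10 loci with the highest lower bounds, 8 were 51-base rows of the foot library labelled positive. A 211-base locus at chr16:17222403-17222613, 8338 bases downstream of Rimbp3, was also among them and passed in all 4 libraries. It had FPKM values of 302106, 289401, 359410 and 400308, outside their bounds in each library.

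Few loci were shared between libraries. A passing row was found in 1 library for 11169 loci (88.8%), in 2 for 790, in 3 for 303 and in all 4 for 310 (2.47%). The commonest patterns were the foot library labelled positive alone (5550 loci), the foot library labelled negative alone (5041) and both foot libraries (488), ahead of the back library labelled positive alone (368), all 4 libraries (310), the back library labelled negative alone (210), the foot library labelled negative with both back libraries (166) and both back libraries (129). Counting any unnamed row, whatever its value, 9460 loci (75.2%) were held by 1 library and 655 (5.21%) by all 4. Among the loci of 500 bases or more, 254 of 1120 (22.7%) were held by all 4 libraries, against 14 of 3837 (0.365%) among those of 60 bases or fewer. Since the rule took a row from any library, a locus missing from a library was either unlisted there or listed below the threshold, and neither shows that its RNA was absent.

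**Figure D4:**
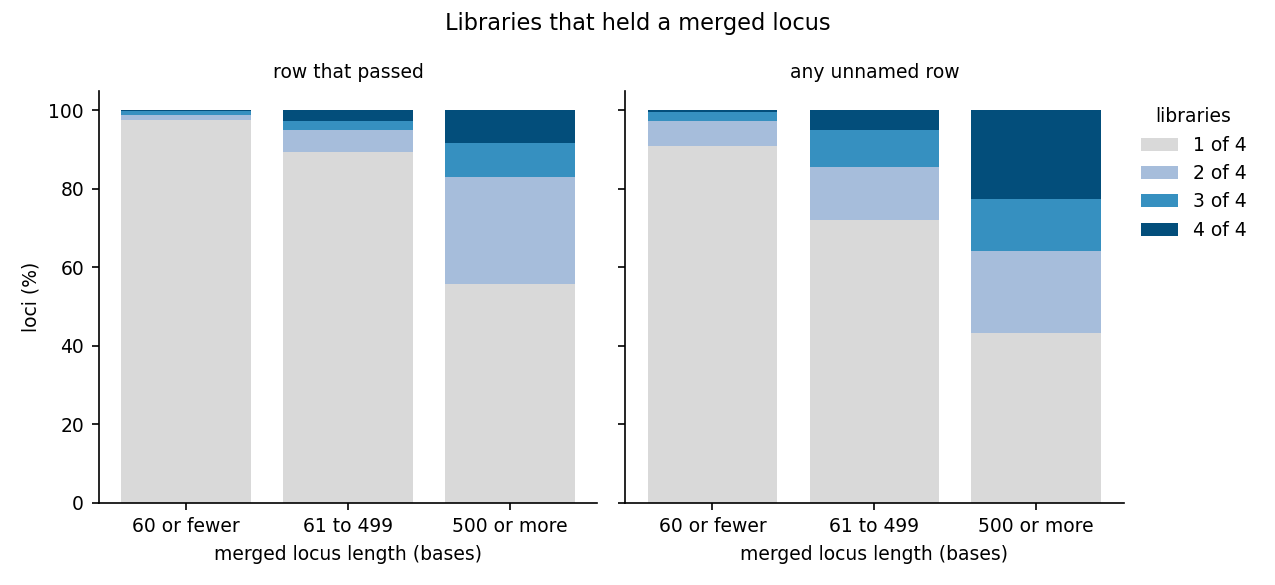
Percentage of merged loci (vertical axis) found in 1, 2, 3 or 4 libraries, by locus length in bases, counting passing rows on the left and any unnamed row on the right. Loci held by all 4 libraries make up 0.365% of the shortest class and 22.7% of the longest on the right.

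Most of the loci lay within named genes. Of the 12572 loci, 10134 (80.6%) shared a base with a named row of any library: 9837 lay inside one, 257 overlapped one in part and 40 contained one. Over all merged unnamed loci the share that overlapped a named row was 81.0%, so the members stood at the background of unnamed rows in this respect. The 2438 loci outside named rows were at a median distance of 6029.5 bases from the nearest one, against 4106 bases over all merged unnamed loci outside named rows and 7686 bases between a named locus and its nearest named neighbour. Within 5000 bases of a named locus lay 1144 of them, 792 downstream and 274 upstream of it, the remaining 78 having a neighbour whose strand was not matched. Only 303 lay more than 100000 bases away. The farthest was a 58-base locus at chr14:81701799-81701856, 1082316 bases from the nearest named row, a U1 small nuclear RNA copy; it passed in 3 libraries with lower bounds of 22.8, 9.28 and 21.5 FPKM in foot positive, foot negative and back positive. Of the loci that passed in all 4 libraries 114 of 310 (36.8%) overlapped a named row, beside 80.6% of all members, and the rest were at a median of 19073.5 bases from one.

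Every chromosome held members. Counts ran from 308 loci on chromosome 19 to 871 on chromosome 2, with 10 on Y. Per megabase covered by named rows, the density ran from 7.62 loci on X to 18.8 on chromosome 18. The single mitochondrial locus, chrM:15391-16260, spanned 870 bases, overlapped the tRNA gene mt-Tp and passed at 10.9 FPKM [6.46 to 15.7] in foot positive alone.

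The longest loci were spans drawn by 1 library. The locus at chr2:34299806-34480461, 180656 bases inside Mapkap1 (a subunit of the mTORC2 kinase complex), rested on a row of the foot library labelled negative with bounds of 7.95 to 15.9 FPKM; the only other row there was 293 bases in the back library labelled positive. The 120421-base locus that contains Col12a1, a collagen gene, was likewise drawn by the foot library labelled negative, while the rows of the back libraries within it were 2423 and 2193 bases. A merged locus is therefore the union of unlike rows, and the values below are those of the longest row in each library, with its length where the text gives it.

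To describe levels, rows were kept whose FPKM lay inside its own bounds with an upper bound at most 3 times the lower. This condition was added after the FPKM values had been seen. It held for 296 (4.43%) and 498 (7.88%) of the passing rows of the foot pair, and for 336 (27.8%) and 243 (25.2%) of those of the back pair. Their median FPKM was 32.2, 18.05, 15.4 and 14.9. They fell in 1043 loci (8.30% of the members), 766 of them of 500 bases or more, with a median length of 952 bases. Of these loci 829 met the condition in 1 library, 155 in 2, 39 in 3 and 20 in all 4. Named rows overlapped 948 (90.9%) of them, and of the 95 others 57 lay within 5000 bases of a gene, 37 downstream and 18 upstream.

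Among the members of 500 bases or more, 95 passed in all 4 libraries, 39 inside a named locus, 13 overlapping one in part, 5 containing one and 38 outside. In 14 of the 95 the longest row met the condition on bounds at 500 bases or more in every library, with median levels of 27.2, 23.3, 14.9 and 13.3 FPKM. The highest lay in Fstl1, a secreted glycoprotein of mesenchyme, at chr16:37822625-37836631. Its rows, of 2645, 2645, 14007 and 2647 bases, were at 284, 135, 71.3 and 70.8 FPKM, beside 501, 782, 235 and 78.5 FPKM for Fstl1. The gene values in foot negative and back positive lay above their own bounds (711 to 754 and 205 to 218 FPKM). A locus in Cnot2, a subunit of the deadenylase complex that shortens mRNA tails, stood at 37.1, 25.1, 10.9 and 13.9 FPKM, and one in Cntln, a centrosomal protein, at 16.8, 20.9, 11.1 and 10.5 FPKM (chr4:84561777-84562897, 1121 bases). The locus in Sh3bgrl on chromosome X was at 36.0, 26.9, 16.6 and 10.8 FPKM over 1340, 2336, 2354 and 2342 bases. In 9 of the 14 loci both foot values stood above both back values as deposited, and in 7 once each library was divided by the factor given below. The same count was not made over named genes, and the rule chose these loci by their lower bounds. Nothing is therefore read from how many of the 14 divided by site. After division by the library factors the log2 ratio of foot to back between the libraries labelled negative was 0.19 at Fstl1, 0.10 at Cnot2 and 0.24 at Cntln. Between those labelled positive it was 1.68, 1.40 and 0.28, the first from rows of unlike length (2645 and 14007 bases). In 1 of the 14, on either scale, both back values stood above both foot values: the locus in Eftud1, a ribosome biogenesis GTPase, at chr7:89919567-89920554, was at 28.4, 9.86, 71.3 and 138.5 FPKM over 686, 891, 988 and 502 bases, and Eftud1 itself was at 2.29, 4.19, 0.949 and 0.753 FPKM.

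Several of the loci that all 4 libraries shared lay next to genes that RefSeq places there but that these tables do not name, judged by gene order on GRCm38.p6 and not by coordinates. The identity of the transcripts was not tested. The 14459-base locus at chr7:80688787-80703245 lay 2154 bases upstream of Chd2, a chromatin remodeller, and the next RefSeq gene on that side is the long noncoding RNA Chaserr. Its bounds were 50.3 to 77.8, 52.7 to 67.2, 47.7 to 56.2 and 30.7 to 36.2 FPKM, as deposited. The 22645-base locus at chr6:134879139-134901783 lay 3607 bases downstream of Cdkn1b, an inhibitor of cyclin-dependent kinases, on the side where RefSeq has the long noncoding RNA Lockd. Its bounds were 52.7 to 86.5 and 37.5 to 56.2 FPKM in the foot and 13.7 to 18.5 and 9.03 to 13.7 FPKM in the back. The 7803-base locus at chr12:103206304-103214106, 77 bases upstream of Cpsf2, adjoins Ndufb1, a subunit of mitochondrial complex I; only its row in the back library labelled positive had an FPKM inside its bounds, at 464 [433 to 495]. The 7248-base locus at chr4:116371772-116379019 overlapped Mmachc, a cobalamin-processing protein, in part, and the next gene on its far side, the peroxidase Prdx1, is named in the tables. It was at 1582, 1824, 1158 and 1067 FPKM, the third of these outside its bounds, while Mmachc was at 0.0539, 3.32, 1.93 and 1.60 FPKM.

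Others lay far from any row that the tables name, though RefSeq has a gene next on that side. The 913-base locus at chr6:3150765-3151677, 170579 bases downstream of Samd9l, passed everywhere with bounds of 20754 to 21188, 21215 to 21488, 8445 to 8529 and 12193 to 12320 FPKM, each of which leaves out the FPKM listed with it. The next RefSeq gene there is the long noncoding RNA Gm20559. The 1382-base locus at chr1:144989840-144991221, 454705 bases downstream of Cdc73, was at 135, 233.5, 106 and 147 FPKM, and the next RefSeq gene there is the long noncoding RNA Gm35303.

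Among loci inside a named gene, Igf2, the fetal growth factor, held a locus at chr7:149836671-149840534 with 118 FPKM [97.7 to 118], 144 [137 to 152] and 312.5 [304 to 326] in foot positive, foot negative and back negative. In back positive its upper bound was 11153 FPKM, and the reason was not tested.

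Members that both foot libraries passed, and for which neither back library listed an unnamed row, numbered 209 of 12572. The same count over all merged unnamed loci was not made, so whether this number is unusual at these unequal depths was not tested. Of the 209, 68 spanned 500 bases or more and 171 lay inside a named locus. In 15 of the 209 both foot rows met the condition on bounds. Of the 209, the locus with the largest span lay beside Hand2, a transcription factor of the posterior limb bud. This 16612-base locus, chr8:59782976-59799587, ended 192 bases upstream of Hand2. It was at 93.6 FPKM [36.97 to 204] over 6265 bases in the foot library labelled positive and at 34.3 [28.9 to 39.7] over 16605 bases in the one labelled negative, and the first of these rows did not meet the condition on bounds. Hand2 was at 9.59, 8.22, 0.486 and 0.498 FPKM, and the next RefSeq gene on the upstream side is the long noncoding RNA Hand2os1. A 3487-base locus that overlapped the other end of Hand2 passed in the foot library labelled negative alone, at 22.8 FPKM [18.8 to 26.8]. Tbx5, the T-box factor of the forelimb, had a 1029-base locus 670 bases upstream, at chr5:120280933-120281961. In the foot pair its rows stood at 21.8 FPKM [9.62 to 21.9] and 22.1 [17.9 to 26.4], and Tbx5 was at 7.68 and 8.504 FPKM, against 0.0466 and 0.0721 in the back pair. Hoxa13, a marker of the hand and foot plate, had a 344-base locus 80 bases downstream (chr6:52206993-52207336) with bounds of 8.24 to 29.9 and 13.7 to 26.3 FPKM in the foot pair; Hoxa13 was at 21.8 and 21.4 FPKM in the foot and listed at 0 in the back. These 3 genes had their higher levels in the foot; the loci beside them have no back value to set against the foot, which the choice of the set fixes. Other genes beside loci of the foot alone did not divide by site: the 1484-base locus 220 bases downstream of Col6a2, a collagen VI chain, was listed in the foot alone, at 10.9 FPKM [8.17 to 11.96] in the library labelled negative, while Col6a2 was at 66.0, 91.8, 86.6 and 78.2 FPKM.

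The reverse set, passed by both back libraries with no unnamed row in the foot, held 121 of the 12572 loci, with the same limit. Of the 121, 35 were of 500 bases or more and 33 lay inside a named locus. In 27 of the 121 both back rows met the condition on bounds. Hoxd8, a homeobox gene of the trunk, held a 1718-base locus at chr2:74544276-74545993. It was at 15.5 FPKM [14.1 to 16.8] in the back library labelled positive and 14.9 [12.7 to 55.2] in the one labelled negative, where the row did not meet the condition. Hoxd8 was listed at 0 in foot positive and was at 0.736, 13.2 and 6.98 FPKM in the other libraries. Ndn, an imprinted gene of the MAGE family, held a 1621-base locus at chr7:69493198-69494818, which stood in the back pair at 111 FPKM [105 to 118] and 59.97 [56.0 to 64.1]. Here the gene did not follow the locus: Ndn was at 99.7, 177, 62.0 and 37.9 FPKM, with both foot values above both back values. Ptprs, a receptor tyrosine phosphatase, held a locus at chr17:56551847-56560780 at 205 FPKM [187 to 223] over 952 bases and 53.1 [47.0 to 59.3] over 8932 bases. The assembler can name a stretch in one library and leave it unnamed in another, so that these patterns describe what was left unnamed and not expression alone.

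**Figure D5:**
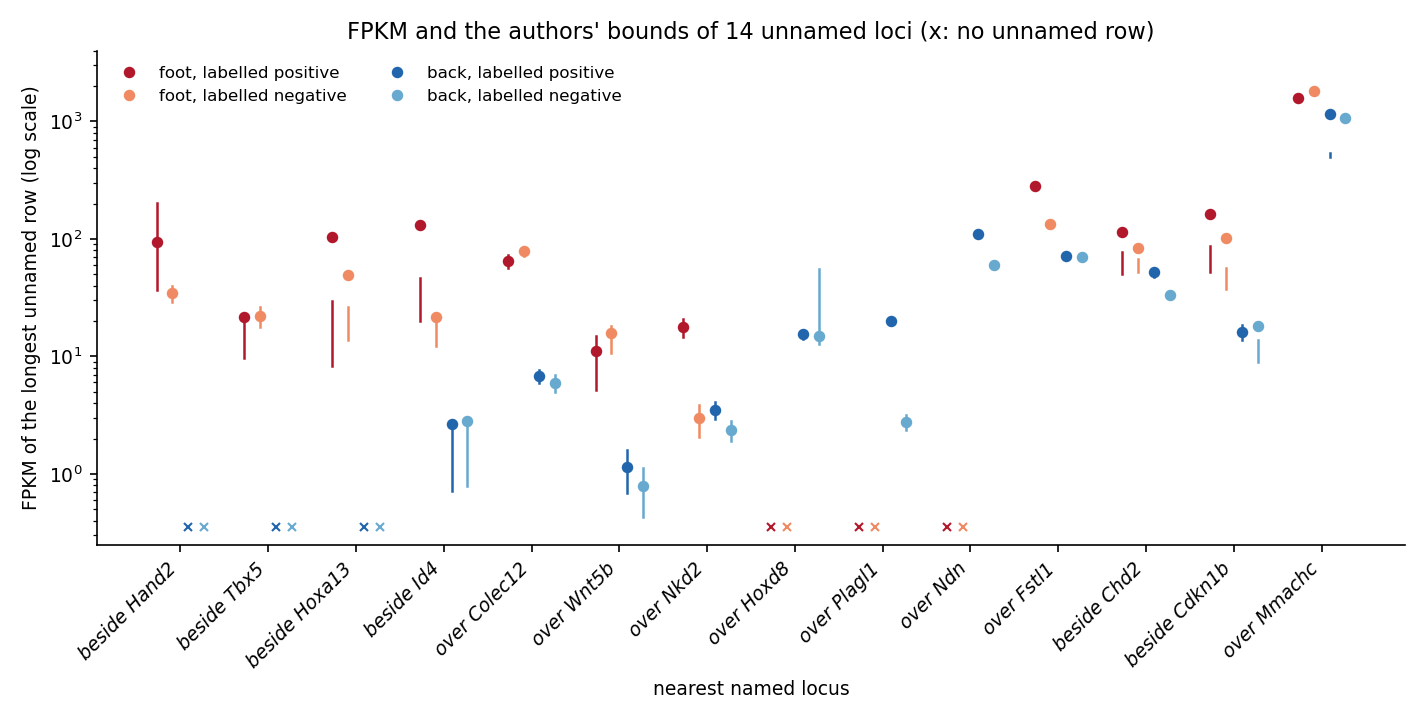
FPKM (points, log scale) and the authors' bounds (vertical lines) of the longest unnamed row in each library for 14 loci, named by the gene they overlap or lie beside; a cross marks a library with no unnamed row. The loci beside Hand2, Tbx5 and Hoxa13 have crosses in the back libraries and those over Hoxd8, Plagl1 and Ndn in the foot libraries, and several points lie above their own line.

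Counted by their nearest named gene, the pathway lists took small shares of the set. The lists say which genes the loci lay in or beside, and the depths given above bear on every count of loci that passed in the foot alone. The Wnt list held 30 chosen symbols and left out others, such as Wnt5b, whose locus is described below. Of 35 loci at the listed Wnt genes, 32 (91.4%) passed in the foot alone, 2 in the back alone and 1 at both sites, where 11079 of all 12572 members (88.1%) passed in the foot alone. Of the 35, 2 spanned 500 bases or more and 3 met the condition on bounds. These 35 were 0.278% of the members, where the listed Wnt genes covered 0.134% of the length of all named loci. The longer ones lay in Wnt5a, a noncanonical Wnt ligand, and in Nkd2, a feedback inhibitor of the pathway. The Wnt5a locus, chr14:29335671-29338744 (3074 bases), was listed in the foot library labelled positive alone, at 63.9 FPKM [58.2 to 69.7], where Wnt5a itself was at 16.7 FPKM, against 43.1, 26.1 and 17.1 in the other libraries. The Nkd2 locus, chr13:73956019-73958940 (2922 bases), was listed in all 4 at 17.7 FPKM [14.7 to 20.6], 2.98 [2.07 to 3.86], 3.50 [2.94 to 4.06] and 2.38 [1.91 to 2.84], so that only the foot library labelled positive stood apart. Nkd2 was at 12.2, 16.9, 7.10 and 8.41 FPKM, with a lower level in that library than in its labelled-negative partner.

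BMP and FGF genes had 23 loci (0.183% of the members, 0.337% of the named length), 6 of 500 bases or more. In the foot alone passed 19 of the 23 (82.6%, beside 88.1% of all members). Id3, a target of BMP signalling that blocks basic helix-loop-helix factors, was overlapped by a locus at chr4:135699669-135714268 at 203 FPKM [189 to 218] over 13655 bases in foot negative and 202 [193 to 212] over 1693 bases in back negative, with no unnamed row in either library labelled positive; Id3 was at 137, 82.3, 153 and 103 FPKM. Its relative Id4 had a 615-base locus 857 bases downstream, at chr13:48360731-48361345, with bounds of 19.9 to 46.7 and 12.2 to 20.4 FPKM in the foot and 0.712 to 2.37 and 0.794 to 2.65 in the back. Id4 was at 16.8, 20.6, 2.30 and 8.73 FPKM. Fgfr1, an FGF receptor, held a 1246-base locus in foot negative alone, at 37.3 FPKM [33.0 to 41.6], next to 35.9 FPKM for the gene.

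Limb and trunk patterning genes had 75 loci (0.597% of the members, 0.139% of the named length) at 16 genes or joined loci, of which 64 (85.3%, beside the same 88.1%) passed in the foot alone, 9 in the back alone and 2 at both sites. Of these, 13 spanned 500 bases or more, and 12 of the 75 met the condition on bounds. Besides Hand2, Tbx5 and Hoxd8 they included Meis1 and Meis2, homeobox partners of Hox proteins. The Meis1 locus passed in back negative at 10.1 FPKM [8.77 to 11.4], where Meis1 was at 11.99 FPKM, and the Meis2 locus in back positive at 9.57 [8.48 to 10.7], where Meis2 was at 6.97 FPKM. Prrx1, a mesenchymal homeobox gene, held a locus in each back library, at 8.89 FPKM [8.13 to 9.57] in the one labelled positive and, at another position, 8.48 [7.75 to 9.21] in the one labelled negative. Prrx1 was not a gene of the back alone in this set. It also held several loci under 500 bases that passed in the foot alone, among them a 472-base locus in both foot libraries.

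Matrix genes, which encode collagens and other proteins dermal fibroblasts secrete, had 158 loci (1.26% of the members, 0.685% of the named length) at 43 genes or joined loci; 139 (87.97%, beside 88.1% of all members) passed in the foot alone, 10 in the back alone and 9 at both sites, and 18 met the condition on bounds. The locus at the end of Col1a1, the α1 chain of type I collagen, chr11:94812414-94814364 (1951 bases), was at 1219 FPKM [1194 to 1267] in foot positive, 793 [783 to 821] in foot negative and 781 with an unusable upper bound in back positive, and Col1a1 itself was at 262, 713 and 712 FPKM there. In these 3 libraries the FPKM of the unnamed row was above that of the named gene. Col1a2 showed the split in another library: its 2173-base locus was listed in foot negative alone at 1884 FPKM [1866 to 1947], where Col1a2 was at 716 FPKM, against 2338, 883 and 533 FPKM in the other libraries. The proteoglycan gene Bgn had a 2742-base locus at 316, 162 and 33.2 FPKM in foot positive, foot negative and back positive, and Lum and Dcn, further small proteoglycans, had loci in back positive alone at 1011 and 278 FPKM. Whether the reads of these unnamed rows belong to the named gene was not tested.

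Long noncoding and small RNA genes or their hosts had 196 loci (1.56% of the members, 0.596% of the named length), 5 of them passed in all 4 libraries. Ribosomal protein genes had 32 (0.255% against 0.135%) and histone genes 12 (0.0955% against 0.0440%). The highest ribosomal protein locus lay at Rps20, in back positive alone, at 1107 FPKM [1068 to 1157], where Rps20 was at 86.1 FPKM, against 916, 978 and 459 in the other libraries.

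The comparisons between libraries used the highest FPKM of a locus after division by a factor per library (1.10, 1.32, 0.893 and 0.786), as log2((FPKM + 1)/(FPKM + 1)). A locus counted as 2-fold apart needed an unnamed row in both libraries and at least 5 FPKM in the higher one. The background is the same count over named genes, and since the rule used these values nothing is read from the members' counts. Comparisons that share a library are not independent. In the foot, 735 of 1238 loci were at least 2-fold higher in the library labelled positive and 145 in the one labelled negative, beside 10.9% and 10.8% of named genes. In the back 219 of 1238 were higher in the library labelled positive and 181 in the one labelled negative, beside 4.6% and 3.67%. Between the libraries labelled positive 1065 of 1294 were higher in the foot and 26 in the back, beside 14.8% and 15.6%, and between those labelled negative 818 of 1392 and 75, beside 13.9% and 13%. In all 4 the FPKM of short rows described above enters the count.

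With matched rows that both met the condition on bounds, few loci could be compared. In the foot 31 of 78 were at least 2-fold higher in the library labelled positive and 1 in the one labelled negative, beside 8.92% and 5.54% of named genes held to the same condition. In the back 9 of 147 and 6 were, beside 3.49% and 2.42%. Between the libraries labelled positive 24 of 40 were higher in the foot and 1 in the back, beside 13.1% and 11%, and between those labelled negative 53 of 114 and 6, beside 11.9% and 12.1%. The median log2 ratio over the matched loci was 0.77, 0.30, 1.35 and 0.85 in this order, and over named genes 0.03, 0.03, 0.06 and 0.04. The matched loci were chosen by the same rule on lower bounds, which named genes were not. Nothing is therefore read from these counts and medians either.

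Named loci in these matched comparisons show what the counts hold. In the foot the Nkd2 locus was higher in the library labelled positive by a log2 ratio of 2.38, as was a 1455-base locus in Sgcd (a sarcoglycan) by 2.62, while one in Map3k7, the kinase TAK1, was lower (-1.14). In the back the locus in Plagl1, an imprinted zinc finger gene, was higher in the library labelled positive by 2.38: chr10:12846948-12851501 stood at 20.2 FPKM [19.1 to 21.2] against 2.76 [2.38 to 3.15]. Plagl1 was at 5.52 and 7.83 FPKM there. The locus in Irf1, an interferon-responsive factor, was lower (-1.52) at 6.10 FPKM against 16.8, and Irf1 was at 14.4 and 20.8 FPKM. Between sites the largest ratios at both labels included Colec12, a scavenger receptor, whose locus chr18:9876983-9878750 was at 64.8 FPKM [56.3 to 73.1], 78.7 [71.6 to 85.8], 6.79 [5.90 to 7.70] and 5.95 [4.97 to 6.94], higher in the foot by 2.80 and 2.83. Colec12 itself was at 19.5, 25.3, 25.2 and 12.4 FPKM and did not divide by site. The locus in Wnt5b, a Wnt ligand, was at 11.2, 15.9, 1.14 and 0.785 FPKM (chr6:119382559-119383513), higher in the foot by 2.30 and 2.71, and Wnt5b was at 1.62, 3.25, 0.673 and 0.529 FPKM. In the other direction the Eftud1 locus was lower in the foot by log2 ratios of -1.59 and -4.38, and the Igf2 locus by -1.85 between the libraries labelled negative.

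At the threshold itself, the members just inside were loci in Gtf3c6, Hs6st3 and Plekhg1 in foot negative and a 58-base locus 1927 bases from a U7 small nuclear RNA copy in back positive, with lower bounds of 5.002 to 5.005 FPKM. The rows just outside included chr15:26770006-26770210 in foot positive, 205 bases, with a lower bound of 4.99984 FPKM, and chr1:196923883-196924315 in foot negative, 433 bases, with one of 4.99881. No test was made across the threshold.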

How the data were processed

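Dermal cells were released with collagenase and hyaluronidase and sorted by FACS into Trizol-LS, and mRNA libraries made with a TruSeq kit were read on a HiSeq machine, per the labels' protocols. TopHat and Cufflinks on mm9 made the tables, per the submitters' processing notes; their versions and the annotation were not given in the sources used here. Values are FPKM per assembled locus, as the authors deposited them, each with 2 bounds and a status, per the file headers. Members and lists were chosen with earlier results of these data known.

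Unnamed rows were merged where they shared 1 base. Starts in the tables count from 0, since end minus start equalled the GENCODE gene length for 66.9% of 19049 named identifiers, and are printed from 1. Distance was the gap to the nearest named row of any library. Upstream and downstream used strand from GENCODE vM21, matched by gene identifier and otherwise by symbol. Next genes came from RefSeq GRCm38.p6 by gene order. Library factors were median ratios over 4834 named units. Date-altered symbols stood in 22 rows and were restored only where the same identifier had an intact symbol elsewhere. Loci named in the text are the 105 of a fixed rule (highest lower bounds, longest, shortest, farthest, extreme ratios, threshold, up to 4 per list, chromosome M), plus sets added after their values were seen: loci of 500 bases or more in each list, at 1 site, in all 4 libraries and with FPKM inside its bounds. The authors' bounds give the precision; read depth is known only relatively, from steps in the bounds. Alternatives were other thresholds, merging gaps, pseudocounts, scalings and filters, and leaving out each library. Scripts (Python 3.11.15, pandas 2.3.3, numpy 2.4.6) were tested on simulated tables. 1 locus under the naming rule is not reported here.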

Additional observations from a re-analysis of the deposited data

How the results depend on the processing

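The number of loci, 12572, fell to 7597 with a lower bound of at least 10 FPKM, at which 6186 overlapped a named locus. Leaving out 1 library at a time gave 7036 to 12376 loci: 7036 without the foot library labelled positive and 7608 without the one labelled negative. The count in all 4 libraries, 655, became 310 when rows had to pass. Over loci longer than 60 bases the median length was 165 in place of 109 bases. The foot comparison, 880 loci at least 2-fold apart, gave 349 where the bounds also had to be apart, 32 for matched rows with FPKM inside its bounds and 27 for these as deposited; the back comparison, 400, gave 126, 15 and 19. Between sites the counts of 1091 (labelled positive) and 893 (labelled negative) became 25 and 59 for such matched rows and 28 and 82 as deposited; the latter was 549 with a lower bound of at least 10. The share of higher loci among those 2-fold apart moved by over 10 points in the foot for these matched rows (83.5% to 96.9%) and in the back for matched rows as deposited (54.8% to 84.2%), which changes the rows and the scale together. The matched-row and length settings were chosen after seeing the data; they test fewer loci by construction. No paired analysis was possible because each group has 1 library. Other settings kept each count within 1.5 times. Depth limits short rows: 1 step of a 51-base row was worth 4.02 and 1.70 FPKM in the foot pair and 0.569 and 0.661 in the back pair.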
